A study of Mus musculus with 37 samples.

Results

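Scavenger receptors are the surface and endosomal proteins with which macrophages take up modified lipoproteins, dead cells, microbes and free haemoglobin. The 9 genes described here were chosen by name: Msr1 and Marco of class A, Cd36 and Scarb1 of class B, Cd68 of class D, Olr1 of class E, the mannose receptor Mrc1, the haemoglobin receptor Cd163 and Stab1 of class H. All 9 were found among the 24016 genes of the expression table. Of these, 7 belonged to the 40.5% of the table that was analyzed, the genes most highly expressed in wild-type (WT) cells, and Cd163 and Olr1 were below that limit.

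The cells were bone marrow-derived macrophages (BMDMs) from male mice 6 to 9 weeks old, either C57BL/6J WT mice or Arntl-/- mice made on a C57BL/6 background. The study calls the WT mice littermate controls in its results, and its methods name C57BL/6J mice from a supplier. Arntl encodes Bmal1, a transcription factor of the circadian clock, and in Arntl-/- mice it is deleted in the whole body, so that the bone marrow had also matured without it. Marrow cells of both genotypes had spent 6 days in M-CSF before Kdo2-lipid A (KLA), the part of bacterial lipopolysaccharide that TLR4 recognizes, was given for 0, 6, 24 or 48 h. PolyA RNA was sequenced in 8 libraries, 1 for each genotype and time. Neither the number of mice behind a library nor pooling is given in the sources used here. With 1 library per condition no comparison at a single time could be tested. The mean difference between the genotypes over the 4 times was tested, with the libraries paired by time. Its error comes from the scatter of the difference over the times and not from replicate mice or cultures. A difference of genotype therefore cannot be told apart from a difference between the mice or cultures used.

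Class A receptors bind polyanionic ligands such as modified low-density lipoprotein (LDL) and bacterial surfaces. Class B receptors handle lipids: CD36 takes up fatty acids and oxidized LDL, and SR-BI, the product of Scarb1, takes up cholesteryl esters from high-density lipoprotein. CD163 and the mannose receptor are markers of macrophages activated by IL-4, IL-10 or glucocorticoids, and inflammatory activation is known to lower the mannose receptor.

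Expression is given as scaled FPKM, which is fragments per kilobase of exon per 10000000 reads divided by a size factor for each library, so levels can be compared between genes as well as between libraries. Averaged over the 8 libraries, Cd68 (1986) and Marco (1969) ranked 85 and 87 among all 24016 genes. Msr1 (1294), Stab1 (1073), Cd36 (745) and Mrc1 (653) followed, and their ranges over the libraries overlapped. Scarb1 had a mean of 275 and overlapped only the low end of Mrc1. Cd163 (9.61) and Olr1 (6.98) overlapped each other and lay below the other 7 in every library. The reads behind a value, worked out from the FPKM, ran from 744 to 39145 for the 7 receptors analyzed, from 20 to 204 for Cd163 and from 24 to 114 for Olr1.

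The promoters of 4 receptors are shown because, of the 7 receptors analyzed, these differed most from 0 h at 48 h: Mrc1 and Stab1 were lowest at 48 h in both genotypes, and Marco and Cd68 were highest then. Each run is the 250 bases before the start that RefSeq gives (GRCm38.p6), on the strand of the gene. Capitals mark matches on either strand to 4 motifs: CACGTG, the E-box of Bmal1 and CLOCK, GAGGAA, the core bound by PU.1, TGANTCA of AP-1 and, for the NF-κB type, GGGA and CC with any 4 bases between them. The windows are chr2:14229164-14229413, plus strand, for Mrc1, chr14:31168642-31168891, minus strand, for Stab1, chr1:120505025-120505274, minus strand, for Marco and chr11:69666171-69666420, minus strand, for Cd68.
Mrc1: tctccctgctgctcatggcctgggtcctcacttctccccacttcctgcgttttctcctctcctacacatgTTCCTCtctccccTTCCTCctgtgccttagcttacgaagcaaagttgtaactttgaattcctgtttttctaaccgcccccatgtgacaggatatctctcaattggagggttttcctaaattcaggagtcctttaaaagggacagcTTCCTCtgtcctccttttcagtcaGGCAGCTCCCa
Stab1: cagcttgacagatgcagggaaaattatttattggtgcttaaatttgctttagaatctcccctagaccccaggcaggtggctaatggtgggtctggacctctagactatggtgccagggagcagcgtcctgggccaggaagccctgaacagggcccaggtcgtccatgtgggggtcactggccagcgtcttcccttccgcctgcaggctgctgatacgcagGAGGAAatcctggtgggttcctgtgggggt
Marco: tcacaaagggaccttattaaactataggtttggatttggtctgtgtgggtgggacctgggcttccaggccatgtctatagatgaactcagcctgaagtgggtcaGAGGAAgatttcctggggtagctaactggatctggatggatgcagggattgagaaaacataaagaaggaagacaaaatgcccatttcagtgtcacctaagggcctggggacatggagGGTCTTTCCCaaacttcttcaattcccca
Cd68: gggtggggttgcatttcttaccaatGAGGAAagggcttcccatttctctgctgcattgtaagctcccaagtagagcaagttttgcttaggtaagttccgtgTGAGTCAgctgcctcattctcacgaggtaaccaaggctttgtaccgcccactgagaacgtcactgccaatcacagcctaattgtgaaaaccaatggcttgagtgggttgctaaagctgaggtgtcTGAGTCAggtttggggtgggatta

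None of the 4 motifs overlapped another in these windows, and positions are those of a match's first base. In Mrc1 GAGGAA lay on the opposite strand 180, 167 and 35 bases before the start, and the NF-κB type motif 11 bases before it. Stab1 held only GAGGAA, 30 bases before the start. Marco held GAGGAA 146 bases and the NF-κB type motif 29 bases before the start, and Cd68 held GAGGAA 225 bases and AP-1 motifs 149 and 24 bases before it. Of the 7 receptors with an entry (Msr1 and Scarb1 had none), 5 held GAGGAA, 4 the NF-κB type motif, 2 the AP-1 motif and 0 the E-box. Among 32851 promoter windows of the same length, 23.3% held GAGGAA, 17.6% the NF-κB type motif, 6.75% the AP-1 motif and 6.02% the E-box. A match to these letters is a description of the sequence and not a binding site.

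Reads counted on genes came to 13080318, 27036783, 10685710 and 9191164 for WT macrophages at 0, 6, 24 and 48 h. For Arntl-/- macrophages they came to 18166576, 15461831, 15350455 and 8587560. Arntl itself was lower in every Arntl-/- library (scaled FPKM of 11.3 to 20.2) than in every WT library (32.3 to 38.7). The 6 macrophage markers measured, Emr1, Csf1r, Itgam, Fcgr1, Lyz2 and Mertk, summed to 12274 to 31926 in WT macrophages and 13863 to 27527 in Arntl-/- macrophages. Against these, 5 neutrophil markers summed to 7.58 to 56.0 and 29.0 to 138, 5 lymphocyte markers to 1.14 to 4.09 and 3.93 to 14.3, 4 dendritic cell markers to 3.91 to 9.19 and 4.73 to 10.9, and 5 endothelial markers to 12.7 to 34.6 and 13.4 to 27.8. Mpo and Cd3e were at 0 in all 8 libraries. The 6 stromal markers, 3 of them collagens, summed to 393 to 1083 in WT macrophages and 306 to 669 in Arntl-/- macrophages. The 3 collagens were lower in each Arntl-/- library than in the WT library of its time, whereas Dcn was higher in Arntl-/- macrophages at 0, 24 and 48 h and Lum at 0, 6 and 48 h. In such cultures fewer cells of a type and less RNA per cell cannot be told apart, and the part of other cells in the values was not tested.

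One property of the libraries bears on every receptor that is highly expressed. Among the 972 genes analyzed with the highest mean level, the median log2 difference from the 8-library mean was -0.36 in the deepest library, WT at 6 h. It was 0.31 and 0.25 in the shallowest libraries, WT and Arntl-/- at 48 h, and -0.20 in the next deepest, Arntl-/- at 0 h. Of the 7 receptors analyzed, all but Scarb1, which lies where the differences are small, have levels at which these differences are large. For the receptors, and for the other genes where it ends a count past 1.5-fold, the value after each library was corrected for its trend with expression level is therefore also given. All shares of genes past 1.5-fold are from values before correction. Counts past 1.5-fold after correction therefore have no share of all genes beside them. In these 8 libraries depth cannot be told apart from genotype or time, and the correction also removes any true change shared by genes of the same level. The authors also limited the tags counted per position. Reads per base of exon were highest in the WT 6 h library for each of the 7 receptors, from 1.39 (Scarb1) to 6.63 (Cd68). The part of this limit in the trend with level, and in the receptors' values, was not tested.

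**Figure D1:**
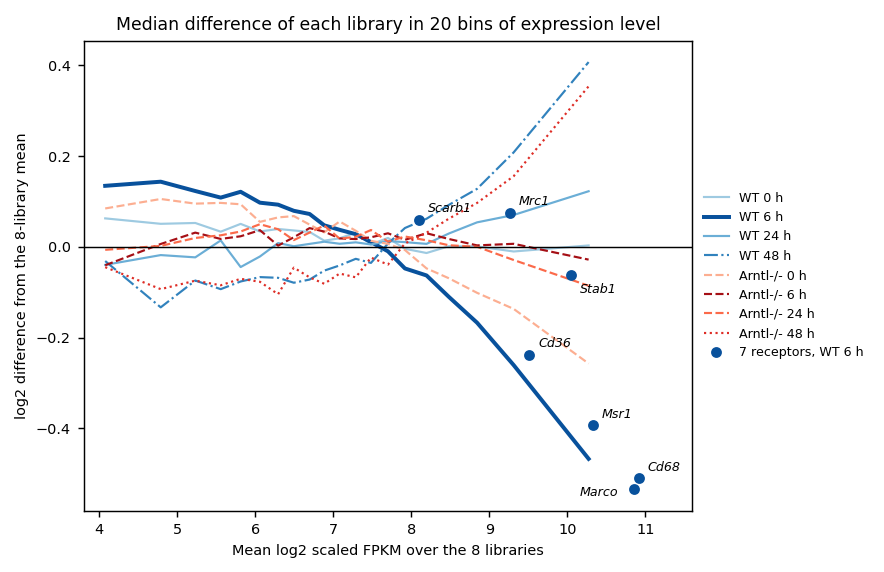
Median log2 difference of each library from the mean of the 8 libraries (y axis) in 20 bins of mean log2 scaled FPKM (x axis) over all genes analyzed, with the 7 receptors drawn as points at their values in the WT 6 h library. Lines fan out above a log2 level of about 8, the WT 6 h library (thick line) lying lowest there, and Msr1, Marco, Cd36 and Cd68 lie near that line while Scarb1, Mrc1 and Stab1 lie above it.

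**Figure D2:**
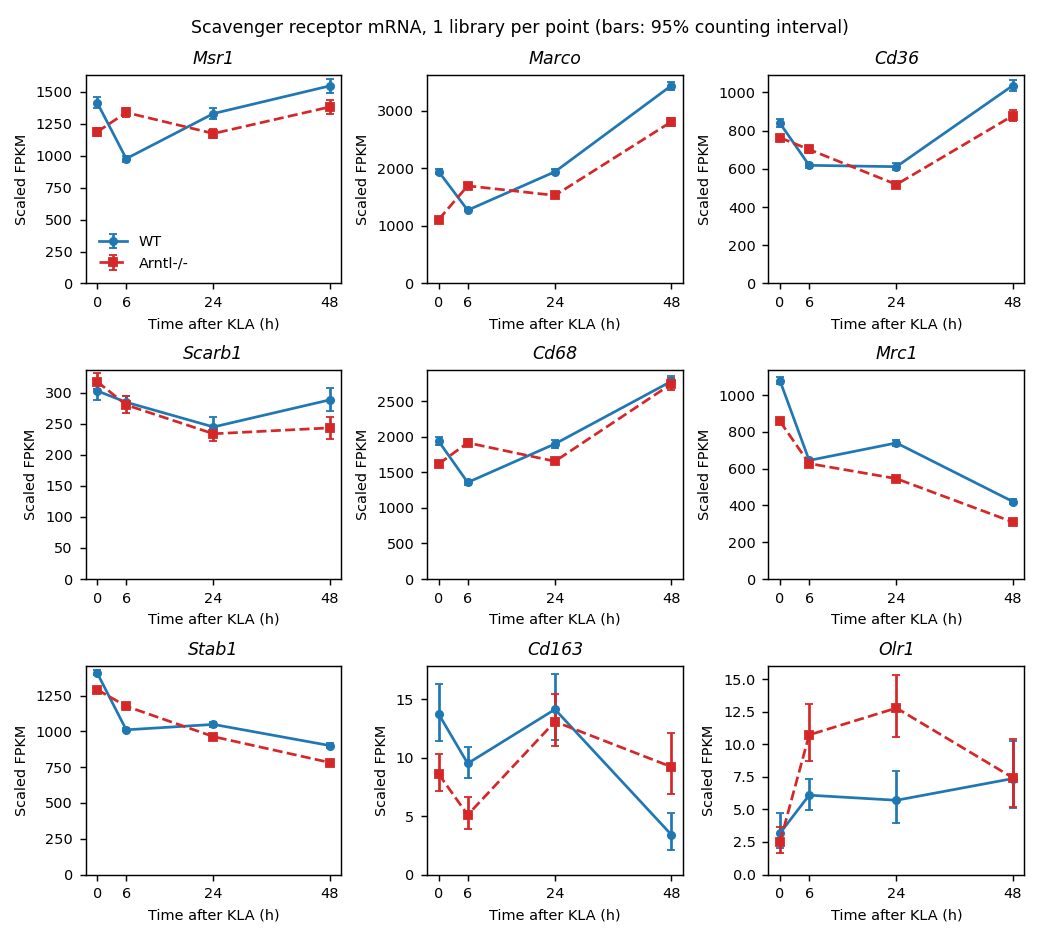
Scaled FPKM (y axes) of the 9 receptors against hours after KLA (x axes) in WT (blue circles) and Arntl-/- (red squares) BMDMs, each point 1 library and each bar the exact 95% Poisson interval for counting error. Mrc1 is at 1077 at 0 h and 421 at 48 h in WT macrophages and at 857 and 310 in Arntl-/- macrophages, Marco is highest at 48 h in both genotypes, and the bars are wide only for Cd163 and Olr1.

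Marco, the macrophage receptor with collagenous structure (NM_010766, chromosome 1, 122371115 to 122401661 of mm9, minus strand), had the largest difference between genotypes before KLA. In WT macrophages its scaled FPKM was 1947, 1274, 1943 and 3440 at 0, 6, 24 and 48 h. In Arntl-/- macrophages it was 1111, 1697, 1532 and 2811. The Arntl-/- library was therefore the lower at 0, 24 and 48 h and the higher at 6 h, and the ranges over time overlapped. At 0 h Marco was 1.75-fold lower in Arntl-/- macrophages, a log2 ratio of -0.81 with an exact conditional 95% interval for counting error of -0.86 to -0.76, and 0.525% of the genes analyzed had a ratio as low or lower. After correction for level the ratio was -0.52, which is short of 1.5-fold. The ratios at 6, 24 and 48 h were 0.41, -0.34 and -0.29, and -0.08, -0.11 and -0.22 after correction.

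At 6 h after KLA Marco differed from 0 h in opposite directions in the genotypes. It was 1.53-fold lower than at 0 h in WT macrophages and 1.53-fold higher in Arntl-/- macrophages (log2 -0.61 and 0.61). After correction these changes were -0.08 and 0.36. At 48 h it was 1.77-fold higher than at 0 h in WT macrophages and 2.53-fold higher in Arntl-/- macrophages, with log2 changes of 0.82 and 1.34 that were 0.35 and 0.65 after correction, the first of which is short of 1.5-fold. The 3 changes in a genotype share its 0 h library, so the low 0 h value of Arntl-/- macrophages enters all of its changes.

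Msr1, the class A receptor SR-A (NM_001113326, chromosome 8, 40667054 to 40728032, minus strand), varied less than Marco. Its scaled FPKM was 1416, 977, 1330 and 1547 in WT macrophages and 1187, 1339, 1174 and 1382 in Arntl-/- macrophages at 0, 6, 24 and 48 h. The lowest of the 8 values was that of WT macrophages at 6 h, and the 4 Arntl-/- values lay inside the WT range. The log2 ratio of Arntl-/- to WT was -0.26, 0.45, -0.18 and -0.16 at the 4 times. After correction it was -0.02, 0.03, 0.01 and -0.11, so that the ratio of 1.37-fold at 6 h was not kept. No change of Msr1 after KLA reached 1.5-fold in either genotype.

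Cd68, a glycoprotein of late endosomes and lysosomes (NM_001291058, chromosome 11, 69477715 to 69479672, minus strand), had genotype ratios of the same sign as Msr1 at every time. It was at 1936, 1357, 1898 and 2777 in WT macrophages and at 1616, 1913, 1653 and 2740 in Arntl-/- macrophages. The WT value at 6 h was the lowest and the values at 48 h were the highest in both genotypes. The log2 ratio of 0.50 at 6 h was -0.01 after correction, and the ratios of -0.26, -0.20 and -0.02 at 0, 24 and 48 h were 0.03, 0.04 and 0.05. The change from 0 to 48 h was 0.52 in WT macrophages and 0.76 in Arntl-/- macrophages, the latter past 1.5-fold, and both were close to 0 after correction (0.04 and 0.06).

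Cd36, the fatty acid translocase (NM_007643, chromosome 5, 17287508 to 17341714, minus strand), was lowest at 24 h and highest at 48 h in both genotypes. Its scaled FPKM was 838, 618, 611 and 1036 in WT macrophages and 763, 701, 518 and 878 in Arntl-/- macrophages. The Arntl-/- library was lower at 0, 24 and 48 h (log2 ratios of -0.14, -0.24 and -0.24) and higher at 6 h (0.18). After correction the ratios were 0.02, -0.12, -0.12 and -0.20 in the order of time. The WT values at 6 and 24 h did not differ beyond their counting intervals (607 to 630 and 591 to 632). At 24 h Cd36 was 1.37-fold lower than at 0 h in WT macrophages and 1.47-fold lower in Arntl-/- macrophages, short of 1.5-fold in both. The log2 changes were -0.54 and -0.68 after correction, the second of which is past 1.5-fold.

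Scarb1 (NM_001205082, chromosome 5, 125757457 to 125821464, minus strand) was the steadiest receptor of the 9, its highest value being 1.36 times its lowest. It was at 303, 285, 245 and 289 in WT macrophages and at 318, 281, 234 and 244 in Arntl-/- macrophages. The genotypes lay within 1.19-fold of each other at every time, with the widest gap at 48 h. The log2 ratios were 0.07, -0.02, -0.07 and -0.25 in the order of time, and 0.11, -0.11, -0.06 and -0.22 after correction. At 0, 6 and 24 h the counting intervals of the log2 ratio included 0 (-0.02 to 0.16, -0.11 to 0.06 and -0.19 to 0.05), and at 48 h the interval was -0.39 to -0.10. Scarb1 reached 1.5-fold in none of the 10 comparisons.

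Mrc1, which binds mannose and fucose on microbes and glycoproteins (NM_008625, chromosome 2, 14151041 to 14253650, plus strand), had the largest decline after KLA among the 7 receptors analyzed. Its scaled FPKM was 1077, 645, 740 and 421 in WT macrophages at 0, 6, 24 and 48 h. In Arntl-/- macrophages it was 857, 628, 546 and 310. Every library after KLA lay below the 0 h library of its genotype, and at each time Mrc1 was lower in Arntl-/- macrophages, although the ranges over time overlapped. From 0 to 48 h it was 2.56-fold lower in WT macrophages and 2.77-fold lower in Arntl-/- macrophages (log2 -1.35 and -1.47, and -1.56 and -1.77 after correction). At 6 h the log2 change was -0.74 in WT macrophages and -0.45 in Arntl-/- macrophages, and at 24 h it was -0.54 and -0.65. After correction the changes were -0.49 and -0.59 at 6 h and -0.61 and -0.76 at 24 h, so 1.5-fold was lost at 6 h in WT macrophages and gained at 6 h in Arntl-/- and at 24 h in WT macrophages.

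The genotype ratio of Mrc1 was -0.33, -0.04, -0.44 and -0.44 at 0, 6, 24 and 48 h on the log2 scale. The ratio closest to 0 was that at 6 h, where the counting interval ran from -0.08 to -0.001. After correction the ratios were -0.20, -0.30, -0.35 and -0.41. None reached 1.5-fold, the largest being 1.36-fold lower at 24 and 48 h, and 4.73% of the genes analyzed had a ratio as low or lower at 24 h and 8.72% at 48 h. Without replicates it is not known how far 2 WT libraries of the same time would differ.

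Stab1, which encodes stabilin-1, a receptor for acetylated LDL and the matrix protein SPARC (NM_138672, chromosome 14, 31952203 to 31981827, minus strand), followed the same course as Mrc1 with smaller steps. It was at 1409, 1011, 1049 and 901 in WT macrophages and at 1292, 1176, 964 and 783 in Arntl-/- macrophages. In both genotypes the 0 h value was the highest and the 48 h value the lowest. At 6 h the log2 change was -0.48 in WT and -0.14 in Arntl-/- macrophages, and -0.08 and -0.34 after correction. It was 1.56-fold lower at 48 h than at 0 h in WT macrophages and 1.65-fold lower in Arntl-/- macrophages, and the log2 changes of -0.64 and -0.72 were -0.98 and -1.22 after correction. The genotype ratios were -0.12, 0.22, -0.12 and -0.20, and 0.09, -0.17, 0.05 and -0.16 after correction, so 3 of the 4 changed sign.

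Cd163 and Olr1 were low, and their values carry wide counting errors. Cd163, which clears haemoglobin bound to haptoglobin (NM_053094, chromosome 6, 124254669 to 124280545, plus strand), was at 13.8, 9.51, 14.1 and 3.41 in WT macrophages and at 8.61, 5.11, 13.1 and 9.22 in Arntl-/- macrophages. The WT value at 48 h rests on 20 reads and the Arntl-/- value at 6 h on 57. The log2 ratio of Arntl-/- to WT was -0.67 at 0 h (counting interval -1.05 to -0.30) and -0.88 at 6 h (-1.35 to -0.47). At 24 h the ratio was -0.11 (-0.48 to 0.27), and at 48 h Cd163 was higher in Arntl-/- macrophages, with a ratio of 1.41 (0.66 to 2.26). After correction the ratios were -0.66, -0.67, -0.09 and 1.53. In WT macrophages Cd163 was 3.94-fold lower at 48 h than at 0 h, whereas in Arntl-/- macrophages the log2 change of 0.10 had an interval of -0.40 to 0.58.

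Olr1 encodes LOX-1, a receptor for oxidized LDL (NM_138648, chromosome 6, 129435266 to 129457183, minus strand). It was at 3.18, 6.10, 5.71 and 7.37 in WT macrophages and at 2.52, 10.7, 12.8 and 7.44 in Arntl-/- macrophages, from 24 to 114 reads. Its 0 h value was the lowest in each genotype. In Arntl-/- macrophages it was 4.13-fold higher at 6 h, 4.92-fold higher at 24 h and 2.88-fold higher at 48 h than at 0 h, with a counting interval for the 24 h log2 change of 1.74 to 3.00. In WT macrophages it was 1.89-, 1.77- and 2.28-fold higher. The genotypes were close at 0 h and 48 h (log2 ratios of -0.32 and 0.01, both intervals including 0), and Arntl-/- was higher at 6 h (0.80, 0.40 to 1.23) and 24 h (1.15, 0.60 to 1.76). After correction the ratios were -0.28, 1.04, 1.19 and 0.18 in the order of time. Its promoter window held GAGGAA 76 bases and an AP-1 motif 60 bases before the start.

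Between the genotypes, 1 of the 7 receptors analyzed passed 1.5-fold at any time, Marco at 0 h, and it was lower in Arntl-/- macrophages. After correction for level its ratio was -0.52, and 0 of the 7 passed. Of all genes analyzed, 1.58% were lower by at least 1.5-fold at 0 h and 2.18% higher. At 6, 24 and 48 h 0 of the 7 receptors passed in either direction, where 1.78%, 2.2% and 4.91% of all genes were lower and 1.88%, 2.61% and 4.27% were higher. The median log2 ratio of the 7 receptors was -0.26, 0.22, -0.20 and -0.24 in the order of time, beside -0.02, 0.01, -0.0050 and -0.02 over all genes. After correction for level the receptors' medians were 0.02, -0.11, -0.06 and -0.20.

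**Figure D3:**
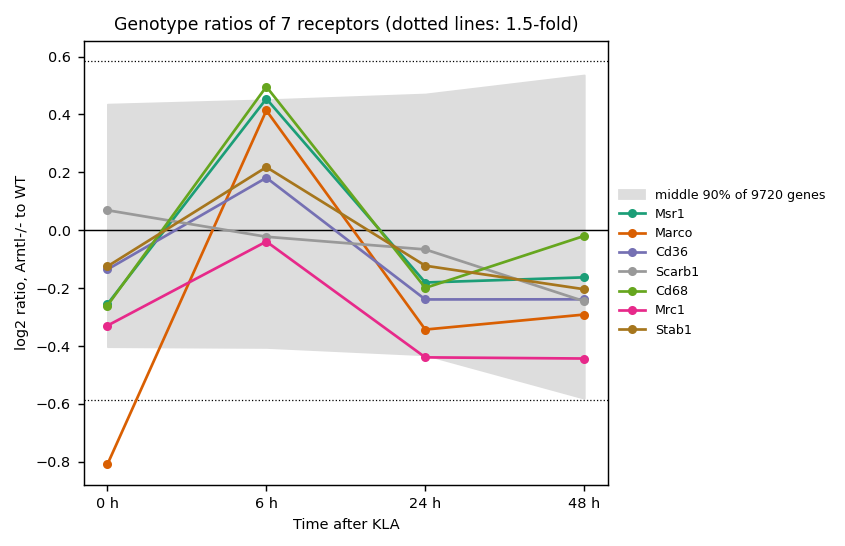
Log2 ratio of Arntl-/- to WT scaled FPKM (y axis) at 0, 6, 24 and 48 h after KLA (x axis) for the 7 receptors analyzed, 1 library per genotype and time. The gray band is the middle 90% of all genes analyzed and dotted lines mark 1.5-fold. Marco at 0 h (-0.81) is the only point past a dotted line, and 5 of the 7 receptors lie above 0 at 6 h.

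Of the 7 receptors, 6 (all but Scarb1) were lower in Arntl-/- macrophages at 0, 24 and 48 h, as were 22.5% of all genes, but 5 of these 6 were higher at 6 h. After correction for level 2 of the 7, Marco and Mrc1, were lower at 0, 24 and 48 h, as were 18.6% of all genes. Mrc1 was lower at all 4 times, as were 7.53% of all genes. None of the 7 had every Arntl-/- library below every WT library (0.556% of all genes) or above it (0.638%). The 4 times are not replicates of a genotype.

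Over the 4 times together, none of the 7 receptors analyzed passed a test of the genotype difference. The mean log2 ratio was tested with limma across all genes analyzed, with time as a block and 3 residual degrees of freedom, so that a genotype difference that varies with time enters the error. At an adjusted p of 0.05, 0 of the 7 receptors passed, where 0.175% of all genes were lower and 0.206% higher. At an unadjusted p of 0.05 1 receptor passed, Mrc1, beside 8.77% of all genes, and after correction for level 2 passed, Mrc1 and Marco, beside 9.96%. The mean ratio of Mrc1 was -0.31 ± 0.10 (SE, 4 pairs of libraries), lower in 4 of 4 pairs, with an adjusted p of 0.32 by limma that was 0.064 after correction. Before correction it ran from 0.061 to 0.89 when 1 time was left out, the lowest without 6 h. That of Marco was -0.26 ± 0.21, lower in 3 of 4 pairs, with a limma adjusted p of 0.84, and 0.29 after correction. The other 5 receptors had mean ratios between -0.11 (Cd36) and 0.0044 (Cd68).

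**Figure D4:**
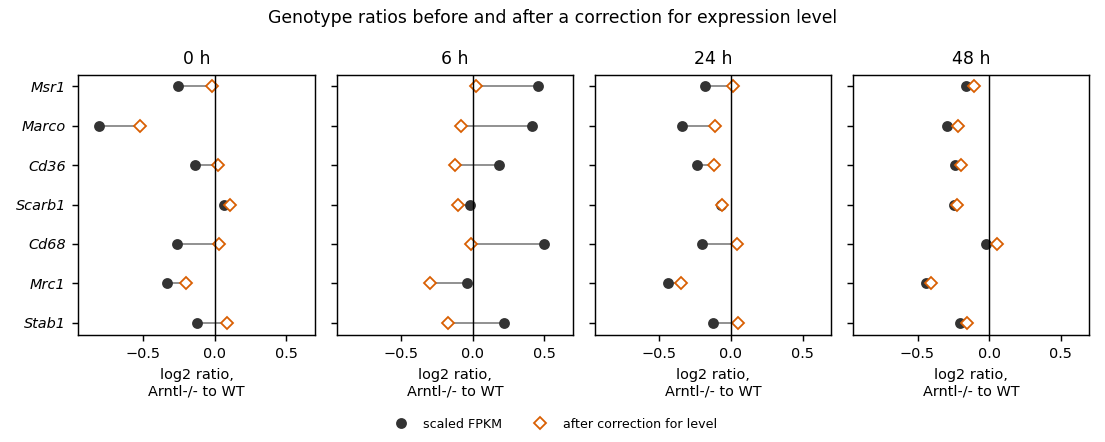
Log2 ratio of Arntl-/- to WT (x axes) of the 7 receptors (rows) at 0, 6, 24 and 48 h (panels) from scaled FPKM (filled circles) and after correction of each library for expression level (open diamonds). At 6 h the ratios of Msr1, Marco and Cd68 move from between 0.41 and 0.50 to between -0.08 and 0.03, while Mrc1 stays below 0 at all 4 times in both versions.

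After KLA, Mrc1 and Stab1 were lower at 48 h by at least 1.5-fold in both genotypes, with and without correction for level. Marco was higher by at least 1.5-fold in both before correction, but only in Arntl-/- macrophages after it. Of all genes, 10.3% were lower and 9.12% higher by this measure in both. The changes past 1.5-fold came to 5 in WT macrophages and 6 in Arntl-/- macrophages. In WT macrophages Marco and Mrc1 were lower at 6 h (3.29% of all genes), Mrc1 and Stab1 were lower at 48 h (14.3%) and Marco was higher at 48 h (12.7%). After correction Mrc1 and Stab1 at 48 h still passed, Marco at 6 and 48 h and Mrc1 at 6 h did not, and Mrc1 at 24 h did. Before it no receptor was higher at 6 h (4.31%), and at 24 h none was higher (7.94%) or lower (7.91%).

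In Arntl-/- macrophages Marco was higher at 6 h, where 2.79% of all genes were higher. None of the receptors was lower then (2.58%). At 24 h Mrc1 was lower (8.65%) and none was higher (7.35%). At 48 h Marco and Cd68 were higher (14.8%) and Mrc1 and Stab1 lower (16.7%). After correction Marco at 6 h and Cd68 at 48 h did not pass, the other 4 changes did, and Mrc1 at 6 h and Cd36 at 24 h, both lower, were added. The median log2 change of the 7 receptors was -0.51, -0.31 and 0.13 at 6, 24 and 48 h in WT macrophages and -0.12, -0.42 and 0.20 in Arntl-/- macrophages. Over all genes these medians lay between -0.03 and 0.02.

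All 7 receptors were lower at 6 than at 0 h in WT macrophages, and 4 of 7 in Arntl-/- macrophages. After correction the medians of the 7 at 6 h were -0.08 in WT and -0.24 in Arntl-/- macrophages, so WT no longer had the lower one. Without the size factors the median change of all genes at 6 h in WT macrophages was 0.12 in place of -0.03, that at 48 h in Arntl-/- macrophages -0.18 in place of -0.01, and the receptors' medians were -0.36 and 0.03. With the values as deposited 1.5-fold was lost by Marco and Mrc1 at 6 h in WT macrophages and by Marco at 6 h in Arntl-/- macrophages, and was gained by Cd36 at 24 h in Arntl-/- macrophages.

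**Figure D5:**
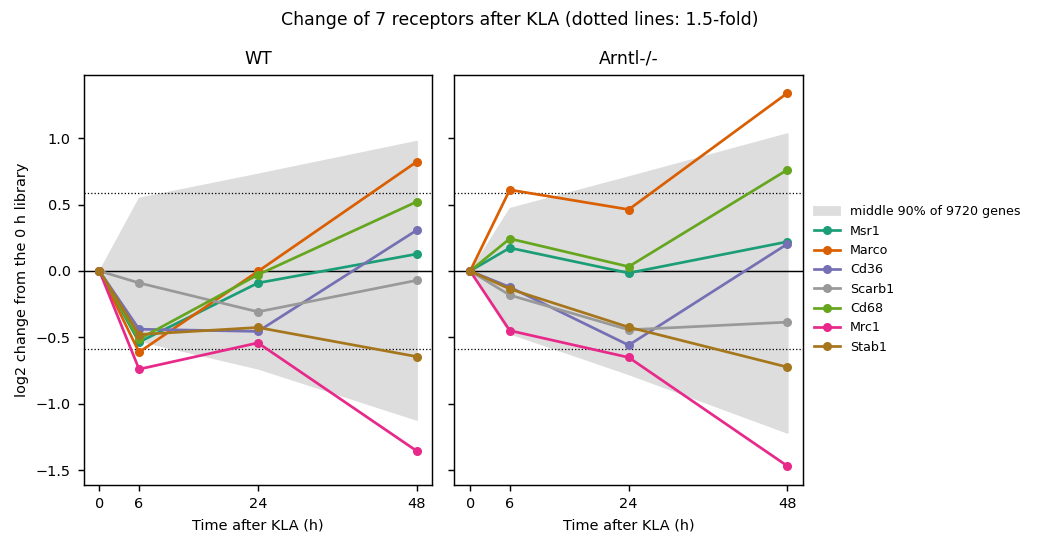
Log2 change from the 0 h library of the same genotype (y axis) against hours after KLA (x axis) in WT (left) and Arntl-/- (right) cells for the 7 receptors analyzed, with the middle 90% of all genes analyzed in gray and 1.5-fold as dotted lines. Mrc1 reaches -1.35 and -1.47 and Marco 0.82 and 1.34 at 48 h, and in WT macrophages all 7 lines are below 0 at 6 h.

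Of the 6 macrophage markers, 5 were higher at 48 h than at 0 h by at least 1.5-fold in WT macrophages (median log2 change 0.73) and 4 in Arntl-/- macrophages (0.90), beside 12.7% and 14.8% of all genes. After correction for level only Fcgr1 and Mertk passed in WT macrophages and only Fcgr1 in Arntl-/- macrophages, and the medians were 0.23 and 0.26. All 6 were expressed in every library, and Mrc1 and Stab1 were lower in the same libraries. The stromal markers were also higher at 48 h, 4 of the 5 analyzed in WT macrophages and 5 of 5 in Arntl-/- macrophages, and these counts were the same after correction. Their part in the receptors' values was not tested.

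Over the 8 libraries Mrc1 and Stab1 varied together and apart from Marco, Msr1 and Cd68, which is given as a description because the libraries differ in depth and time. Pearson's r of log2 values, all before correction for level, was 0.95 between Mrc1 and Stab1, 0.94 between Marco and Cd68 and 0.87 between Msr1 and Cd68. The part in these values of the trend that genes of like level share was not tested. Mrc1 was opposed to Cd68 (r of -0.63) and Marco (-0.62). Of all genes analyzed, those closest to Msr1 were Lcp1 (0.997) and Rap1b (0.990), and those closest to Marco were Dnajc1 and Clptm1 (both 0.99). Sap18 was closest to Cd36 (0.989), Nkain1 to Scarb1 (0.983), Rpl35a to Cd68 (0.991), Dek to Mrc1 (0.988) and Ssr1 to Stab1 (0.989), each over 8 libraries.

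Other scavenger receptors and related proteins (13 of 20 analyzed) included 1 gene that differed between the genotypes at every time. Cd5l, a secreted protein of the scavenger receptor cysteine-rich family, was lower in Arntl-/- macrophages at all 4 times by at least 1.5-fold. It was at 24.9, 25.2, 46.8 and 105 in WT macrophages and at 10.7, 7.56, 18.5 and 27.2 in Arntl-/- macrophages, and each Arntl-/- value from 0 to 24 h lay below every WT value. Its mean log2 ratio over the 4 times was -1.55 ± 0.18 (SE, 4 pairs), with a limma adjusted p of 0.0020, and no other gene of the 13 passed. The mean ratios of the 9 receptors lay between -0.31 (Mrc1) and 0.41 (Olr1). Vldlr, the very low-density lipoprotein receptor, was higher at 0 and 6 h in Arntl-/- macrophages, and Colec12 was lower at 0 h. At 0 and 6 h Vldlr rests on few reads, 35 and 91 in WT and 101 and 116 in Arntl-/- macrophages. After KLA, Cd5l, Vldlr and Cd14, the co-receptor of TLR4, were higher at 24 h in both genotypes and Cxcl16 in WT macrophages. At 48 h 6 of the 13 were higher in WT macrophages, and 9 were higher in Arntl-/- macrophages, where 12.7% and 14.8% of all genes were. After correction Cd14 and Cxcl16 were short of 1.5-fold at 24 h (Cd14 at 0.56 in both genotypes, Cxcl16 at 0.52 in WT macrophages), and the counts at 48 h were 4 and 5, while Cd5l still passed between genotypes at all 4 times.

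Among genes of lipid handling downstream of the receptors, 16 of 17 were analyzed. Between genotypes Apoe was lower in Arntl-/- macrophages at 0 and 24 h, Nr1h3, which encodes the sterol sensor LXRα, at 48 h (259 in WT and 120 in Arntl-/- macrophages), and Fabp5, Lpl and Plin2 were higher at 6 h. Of these only Nr1h3 still passed 1.5-fold after correction (-1.09), where Apoe was at -0.51 and -0.39 and Fabp5, Lpl and Plin2 at 0.15, 0.30 and 0.27. In the limma test over the 4 times, however, Apoe (mean log2 ratio -0.36 ± 0.060, SE, adjusted p of 0.032) and Plin2 (0.32 ± 0.051, adjusted p of 0.023) passed after correction, and Nr1h3 did not (adjusted p of 0.27). Before correction none of these 3 passed in limma (adjusted p of 0.63, 0.66 and 0.27). At 24 h the cholesterol exporters Abca1 and Abcg1, with Acsl1 and Apoe, were higher than at 0 h in both genotypes with and without correction, when Cd36 and Scarb1 were at their lowest of the 4 times. At 48 h 10 of the 16 were higher in WT macrophages and 11 in Arntl-/- macrophages (12.7% and 14.8% of all genes), and 7 and 6 after correction. None was lower at 24 or 48 h, but after correction Lpl was lower at 24 h in Arntl-/- macrophages (-0.59). Pparg, the lipid-activated regulator of Cd36, was below the limit of the genes analyzed, with 13.0 or less in every library.

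All 11 partners of CD36 and CD163 signalling and haem breakdown were analyzed. Tlr2 was higher at 24 h in both genotypes (log2 change of 1.80 in WT macrophages), Fyn, a kinase downstream of CD36, was lower at 24 h in both, and Hmox1, which breaks down haem taken up through CD163, was higher at 48 h in both. The log2 changes of Hmox1 were 0.95 and 1.14 in WT and Arntl-/- macrophages and 0.41 and 0.36 after correction, short of 1.5-fold, while Tlr2 and Fyn still passed. Tlr6 was higher in Arntl-/- macrophages at 48 h, and no other partner passed 1.5-fold between genotypes. Of 13 regulators analyzed (of 14), Nr1d1 and Nr1d2, which encode the repressors RevErbα and RevErbβ, were lower in Arntl-/- macrophages at all 4 times (mean log2 ratios of -1.28 ± 0.17 and -4.33 ± 0.24, SE, with limma adjusted p of 0.0035 and 1.3e-06). Spi1, which encodes PU.1, had log2 ratios of -0.30, 0.44, -0.16 and 0.00061 at 0, 6, 24 and 48 h, the signs at 0, 6 and 24 h being those of Msr1 and Cd68, and of -0.06, 0.02, 0.03 and 0.06 after correction. Cebpb, another transcription factor of macrophages, was lower in Arntl-/- macrophages at 0 h (740 in WT and 402 in Arntl-/- macrophages), as Marco was, and higher at 6 and 48 h. After correction its ratio at 6 h was 0.53 in place of 0.87, short of 1.5-fold, and those at 0 and 48 h still passed.

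Most other markers of alternative activation were below the limit of the genes analyzed, unlike Mrc1 and Stab1. Of 10, 9 were in the table and 3 were analyzed, and Retnla was at 0 in all 8 libraries. Folr2 was higher at 48 h in both genotypes, when Mrc1 was at its lowest, and it was lower in Arntl-/- macrophages at 0, 6 and 24 h, although at 0 h its ratio was -0.57 after correction, short of 1.5-fold. Over the 4 times its limma adjusted p was 0.0033, and 0.0050 after correction. Another of the 3 genes was higher in Arntl-/- macrophages at 48 h by at least 1.5-fold (4.27% of all genes), with and without correction, and 0 were lower then. The 5 KLA response genes analyzed, of 6, included Nos2, Il1b, Ptgs2 and Cxcl10, all 4 of which were higher at 6 and 24 h in both genotypes. Nos2 reached 273 in WT macrophages and 523 in Arntl-/- macrophages at 48 h, in the libraries in which Mrc1 was lowest, and it was higher over the 4 times by limma (adjusted p of 0.0076, and 0.014 after correction). At 48 h Il1b was also higher in Arntl-/- macrophages by at least 1.5-fold, whereas Cxcl10 was lower (157 in WT and 94.6 in Arntl-/- macrophages). Both passed with and without correction.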

How the data were processed

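STAR (alignment to mm9) and HOMER (tags in RefSeq exons, both strands, at most 3 tags per position) were used by the authors, and the FPKM they deposited are per 10000000 reads. As strand was not used, antisense reads are included. Of the value columns, 4 matched no sample label and were not used, and 1 broken line was left out. The labels' ChIP-seq samples were not analysed here.

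FPKM multiplied by exon length fell within 0.1 of whole reads (100% of values under 50 reads), which gave depth and exact 95% counting intervals. These cover counting error only and take no account of the limit on tags per position. FPKM was scaled with size factors by the median-of-ratios method (0.918 to 1.13), and ratios were taken as log2(value + 0.1), which understates changes of low genes. Analysis was limited to genes whose scaled FPKM times exon length in kb reached 74.5 in a WT library (40.5% of the table), as many as the study clustered. A change was counted from 1.5-fold. After the data had been seen, the mean genotype difference was tested with limma (genotype and time as terms, variance trend, Benjamini-Hochberg adjustment over all genes analyzed). The correction for level removed the lowess trend (fraction 0.3) with mean level from the difference between a library and the 8-library mean. Promoter bases came from RefSeq (GRCm38.p6).

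The receptors, the other gene lists and the marker lists (other scavenger receptors, lipid handling, partners, regulators, alternative activation, KLA response, and macrophage, neutrophil, lymphocyte, dendritic, stromal and endothelial markers) were chosen with earlier results of these data known. Named from each list were up to 4 genes by mean genotype ratio, up to 4 by change from 0 to 24 h in WT cells and those counted past 1.5-fold, and for each receptor the genes with the highest r. Some genes of these lists are not reported here. Steps were tested on simulated data. Calculations were made in R 4.3.3 with limma 3.58.1 and in Python 3.11.15 with statsmodels 0.14.6, scipy 1.17.1, pandas 2.3.3 and numpy 2.4.6, and figures with matplotlib 3.10.9.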

Additional observations from a re-analysis of the deposited data

Results flagged for a closer look

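Marco, the class A receptor, changed in opposite directions from 0 to 6 h after KLA in the genotypes. The log2 change was -0.61 in WT macrophages and 0.61 in Arntl-/- macrophages, with 1 library behind each value. The difference between these changes was not tested, since neither condition has a replicate. The WT 6 h library is the deepest of the 8, and after correction for expression level the changes were -0.08 and 0.36, so that the fall in WT macrophages was not kept at 1.5-fold and the opposite signs rest on a WT value near 0. With the values as deposited they were -0.45 and 0.55. The part of depth, or of the limit on tags per position, in these values was not tested.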

How the results depend on the processing

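Of the 7 receptors, 1 value passed 1.5-fold between genotypes, 11 values passed it after KLA, and 1 receptor was lower in Arntl-/- macrophages at all 4 times. With the values as deposited these counts were 1, 9 and 1, with upper-quartile scaling or a pseudocount of 1 or 0.01 they were 1, 11 and 1, and with a correction for gene length 1, 10 and 1. With the correction for expression level they were 0, 9 and 2 (Mrc1 and Marco), and with a correction by the 200 genes nearest in level, chosen after seeing the data, 0, 9 and 2. With a limit of FPKM of at least 1 (15855 genes) or a mean of at least 50 reads (11016 genes) Cd163 and Olr1 entered, and the counts were 6 and 20 in both cases. All of the values added there were those of Cd163 and Olr1. At 2-fold 0 and 3 values passed. The shares of all genes under these other limits were not worked out, so these counts have no background beside them. Without the 6 h libraries, also chosen after seeing the data, 6 receptors were lower at all remaining times, and 2 after correction for level. Of 90 single values, 72 kept their sign with the correction for level, 71 with that by neighbours and 85 as deposited. In the limma fit with libraries paired by time, chosen after seeing the data, 0 receptors passed with all libraries, after correction for level and without any 1 time. At an unadjusted p of 0.05 there were 1 and 2 with all libraries (8.77% and 9.96% of all genes), and without the 6 h libraries 6 before correction (16.9%) and 2 after it (14.7%). As each condition had 1 library, no replicate could be left out. Depth limits Cd163 and Olr1 most, whose values rest on as few as 20 reads.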

Other observations

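Chil3, a secreted chitinase-like protein that often accompanies Mrc1 in alternative activation, was below the limit of the genes analyzed, and it is given here because of its values. Its scaled FPKM was 23.2, 27.1, 36.0 and 2.95 in WT macrophages at 0, 6, 24 and 48 h and 92.7, 81.2, 86.9 and 16.3 in Arntl-/- macrophages, higher in Arntl-/- macrophages at each time, where Mrc1 was lower. At 48 h it was at its lowest in both genotypes, as Mrc1 was. Ngp, a neutrophil granule protein, was also higher in Arntl-/- macrophages at each time (83.4, 55.2, 38.4 and 2.70, beside 37.2, 33.3, 17.1 and 0 in WT macrophages), and the part of such cells in the Chil3 values was not tested.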
